A study of Mus musculus with 6 samples.

Results

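The 10 long noncoding RNAs described here are Malat1, Neat1, Meg3, Rian, Mirg, Miat, Snhg11, Snhg14, Peg13 and B930095G15Rik, as measured in the hippocampus of mice of the genotypes N-cre and N-cre;Fox1. They were chosen by gene name as RNAs abundant in brain, with their counts in these mice known, so their levels are a description, and every row of the isoform table whose transcript name without its final number was one of these names was taken. This gave 79 of 133944 isoforms and 10 of 53354 gene symbols. N-cre mice carry a Cre recombinase driven by the nestin promoter, and N-cre;Fox1 mice carry in addition 1 copy of an Rbfox1 cDNA in the Gt(ROSA)26Sor locus, which the CAG promoter expresses once Cre has removed a stop cassette. The transgene was made in embryonic stem cells of another strain and bred onto C57BL/6J. All mice were labelled C57BL/6 and 3 months old, both genotypes carry the Cre, and each genotype has 3 mice with 1 library of total RNA per mouse. The whole dissected hippocampus was sequenced, while the study describes the nestin-driven transgene as active in its neurons.

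Expected counts, the read pairs that RSEM assigned to each isoform, summed to between 40463587 and 62141336 per mouse. Rbfox1 itself, summed over its isoforms, had normalized counts of 15109, 14289 and 14529 in N-cre and 15755, 13414 and 15106 in N-cre;Fox1 mice. The genotypes overlapped (log2 fold change 0.01 ± 0.0566 (SE)), so this sum does not check the labels of the libraries. Nor does it show the modest rise of hippocampal Rbfox1 mRNA that the study reports for N-cre;Fox1 mice. All 10 hippocampal markers were present in every mouse. Markers of choroid plexus were high in N-cre replicate 3 and N-cre;Fox1 replicate 2, with a sum over 8 genes of 119113 and 267896 against 1448 to 1968 in the other 4 mice, and Xist was high in 1 mouse of each genotype.

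These RNAs fall into a few kinds. Malat1 and Neat1 are neighbouring nuclear RNAs: Malat1 collects in nuclear speckles, where splicing factors are stored, and Neat1 is the scaffold of paraspeckles. Meg3, Rian and Mirg are expressed from the maternal chromosome of the imprinted Dlk1-Dio3 region, and the introns and exons of Rian and Mirg carry small nucleolar RNAs (snoRNAs) and microRNAs. Snhg14 is a very long paternally expressed RNA that hosts snoRNA clusters and runs into Ube3a on the opposite strand, and Peg13 is a paternally expressed RNA in an intron of Trappc9. Miat is a nuclear RNA of neurons and Snhg11 a snoRNA host. Rbfox proteins, the family to which the transgene product belongs, bind RNA at the letters TGCATG (with U for T in RNA), regulate splicing in the nucleus and stabilize some RNAs in the cytoplasm.

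The motif TGCATG was searched on the RNA strand of the isoforms named below, since a site in RNA has 1 orientation. It was present in 43.0% of the 48749 tested isoforms for which a sequence was at hand. B930095G15Rik-201 had 2 matches in its 4715 nt, and 38.0% of 6643 isoforms within 20% of its length had as many. Snhg14-213 had 2 in 3708 nt (29.6% of 9021 isoforms of like length) and Snhg11-201 had 1 in 5864 nt (78.9% of 3997). These 3 isoforms are shown because the study lists them as changed in these mice. Each window has 30 bases on the RNA strand in GRCm38, with the motif in capitals, and the windows are at chr14:121250727-121250756 and chr14:121253725-121253754 (plus strand), chr7:59309649-59309678 and chr7:59309436-59309465 (minus strand) and chr2:158381445-158381474 (plus strand), in the order given.
B930095G15Rik-201, site 1: atgtcaaatgttTGCATGgtattaatatct
B930095G15Rik-201, site 2: gccactcacgaaTGCATGgaatgttttgat
Snhg14-213, site 1: ttatctaccagcTGCATGgtaatttcactg
Snhg14-213, site 2: tccaaggttccaTGCATGtcagcataataa
Snhg11-201, site 1: gggtggtggtggTGCATGcctttatttcca

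Meg3-209, the leading Meg3 isoform, had the most matches of the named isoforms, 10 in 14548 nt, where 5.36% of 224 isoforms of like length had as many and their median was 4. Its first and last matches, at chr12:109559327-109559356 and chr12:109571308-109571337 on the plus strand, are shown to mark the stretch that holds all of them.
Meg3-209, site 1: tacatcacataaTGCATGtttagctgggtg
Meg3-209, site 10: taccctgcctagTGCATGaaaactctttat
Neat1-201 had 9 matches in 20771 nt (20% of 30 isoforms of like length had as many) and Malat1-201 had 3 in 6983 nt (31.5% of 2694). Of the other named isoforms, 2 matches were in Miat-201 and in Snhg14-211, and 1 was in Neat1-202, Meg3-207, Rian-202, Mirg-201, Snhg14-214 and Peg13-201. Meg3-202, Meg3-210, Rian-213, Mirg-202, Mirg-207, Mirg-210 and Snhg14-210 had 0. A match describes the letters only, and no match says nothing of binding.

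Which of these RNAs are abundant depends on the scale. By mean expected count over the 6 mice, which grows with length, Meg3 ranked 3 among the 31121 genes with a count, Snhg11 ranked 15, Miat 51 and Rian 118. Peg13 ranked 569, Malat1 649, Neat1 909, B930095G15Rik 3309, Snhg14 3492 and Mirg 6347, so that the name of abundant brain RNAs holds for the first 4 more than for the last 3. Meg3 made up 52.1% of the counts of the 10 RNAs and Snhg11 22.2%, followed by Miat at 11.4% and Rian at 6.71%, and the other 6 made up between 0.263% (Mirg) and 2.32% (Peg13) each. Levels were also set on a scale per length, TPM, computed from annotated isoform lengths and set to the same total in every mouse, and here Meg3 led with 2663 to 2856 TPM over the 6 mice. Rian followed with 1222 to 1292 TPM, Snhg11 with 1132 to 1222 and Miat with 408 to 460. Neat1 lay between 131 and 187 TPM and Peg13 between 139 and 154, and these neighbours in the order overlapped. Malat1 had 91.6 to 105 TPM, Snhg14 79.4 to 91.3, Mirg 59.2 to 72.2 and B930095G15Rik 33.5 to 43.7. No other neighbours in this order overlapped over the 6 mice, but Rian and Snhg11 nearly met. The lowest Rian value was 1222.48 TPM and the highest Snhg11 value 1222.21 TPM, so these 2 are not clearly apart. On the scale per length Rian stood above Snhg11, which had the higher count, and the leading isoform of Rian has 2355 nt against 5864 nt for that of Snhg11.

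**Figure D1:**
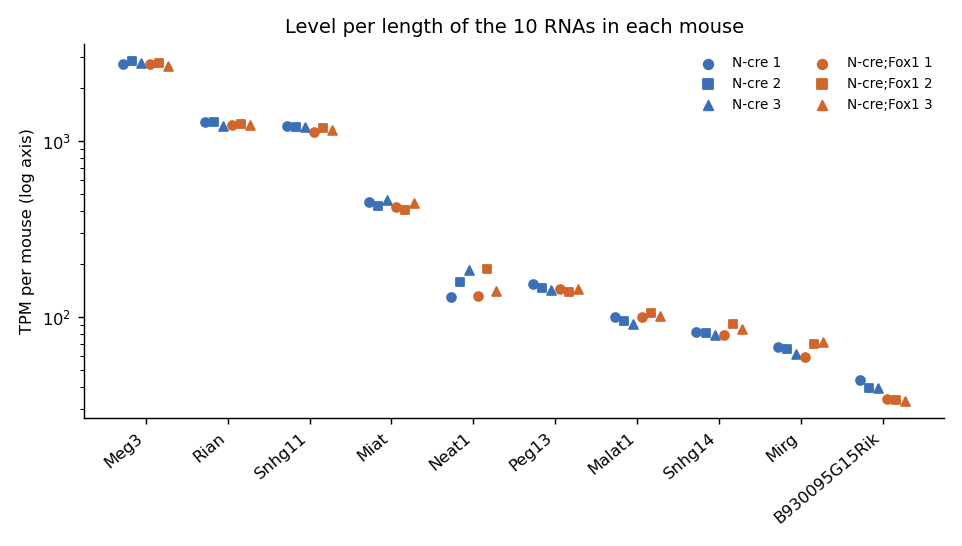
Level per length (TPM, log axis) of the 10 RNAs in each of 3 N-cre (blue) and 3 N-cre;Fox1 (orange) mice, with 1 symbol per mouse. Meg3 leads at 2663 to 2856 TPM, Neat1 spreads most from mouse to mouse (131 to 187 TPM), and the 3 N-cre;Fox1 values of B930095G15Rik lie below its 3 N-cre values.

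Summed over the isoforms of each gene, all 10 RNAs passed the filter on low counts, and 7 were lower and 3 higher in N-cre;Fox1 than in N-cre mice. The median log2 fold change of the 10 was -0.06, and over all 18924 genes tested 50.0% were lower. edgeR's quasi-likelihood test called 0 of the 10 at an adjusted p under 0.05, and 1 (B930095G15Rik) had an unadjusted p under 0.05, and DESeq2 called this 1 and limma-voom 0. Over all genes edgeR called 0.0264%, and 6.19% had an unadjusted p under 0.05 in it. DESeq2 called 50 of all genes and limma-voom 6. The 5 genes called in edgeR, Bcas1, Daam2, Sspn, Suclg1 and Tmsb10, are none of these RNAs. In 2 of the 10, Snhg11 and B930095G15Rik, the 3 mice of one genotype all lay below those of the other, both with the lower values in N-cre;Fox1, and this holds for 12.2% of all genes, 6.11% in that direction and 6.06% in the other. Fewer cells that express an RNA and less RNA per cell cannot be told apart in whole tissue.

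**Figure D2:**
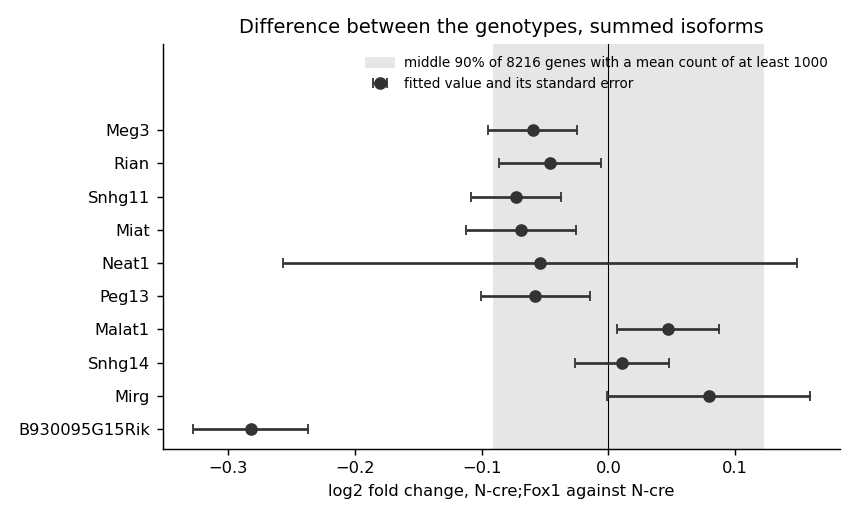
Fitted log2 fold change (N-cre;Fox1 against N-cre, 3 mice each) of the 10 RNAs, with the standard error as bars, over a grey band from -0.09 to 0.12 that holds the middle 90% of the 8216 genes with a mean count of at least 1000. Of the 10 values, 1, that of B930095G15Rik at -0.28, lies outside the band, and the bar of Neat1 is the widest.

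B930095G15Rik (ENSMUSG00000085133.2, chr14:121248706-121253971, plus strand) is annotated as sense intronic and lies wholly within an intron of Farp1, a gene for a cytoskeletal regulator of dendrites and synapses. In Farp1-201 this is intron 13 of 26, with 11799 bp. Its normalized counts were 4357, 3931 and 3910 in N-cre and 3434, 3280 and 3324 in N-cre;Fox1 mice. Every N-cre;Fox1 mouse lay below every N-cre mouse. The means were 4066 ± 252 and 3346 ± 79.1 (SD, n = 3 each), and the log2 fold change was -0.28 ± 0.0454 (SE). The unadjusted p was 8.51e-05 and the adjusted p 0.216 in edgeR's quasi-likelihood test over all genes, so the difference did not pass 0.05. The call turned on the method: with all 6 mice the adjusted p was 0.000304 in edgeR with no filter beyond 1 count in total, 0.00144 in DESeq2's Wald test and 0.0256 in edgeR with a term for Xist. In the 8 other fits with all 6 mice, limma-voom and the fit reported above among them, it was 0.106 to 0.352, and in edgeR with each mouse left out in turn 0.0817 to 0.969, while the log2 fold change stayed between -0.31 and -0.22 throughout. Without the 2 mice with choroid plexus transcripts it was -0.29, with an adjusted p of 0.137 in edgeR. The study lists B930095G15Rik-201, the only isoform of this gene, as changed in these mice, so its values are not independent evidence.

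Farp1 went the other way. Its normalized counts were 3741, 3342 and 3392 in N-cre and 3852, 3765 and 3747 in N-cre;Fox1 mice, with all of the latter above the former. The log2 fold change was 0.12 ± 0.0444 (SE), and the adjusted p was 0.782 (unadjusted 0.0250) in edgeR's quasi-likelihood test. As a percent of the Farp1 count in the same mouse, B930095G15Rik stood at 116, 118 and 115 in N-cre and at 89.1, 87.1 and 88.7 in N-cre;Fox1 mice. This ratio needs no scaling between libraries, its spread within a genotype was small (SD 1.19 and 1.05), and the difference of the means was -28.1 percentage points of the Farp1 count. All N-cre;Fox1 mice were lower in B930095G15Rik and higher in Farp1 than all N-cre mice, so the ratio had to separate them. The exact permutation test therefore had to give p = 0.1, the smallest that 3 mice against 3 allow, and adds no support. Farp1 was compared after the values of B930095G15Rik were seen. Both genes lie on the plus strand, so in total RNA reads of unspliced Farp1 within exons of B930095G15Rik could not be told from its own. The part of such reads was not tested.

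**Figure D3:**
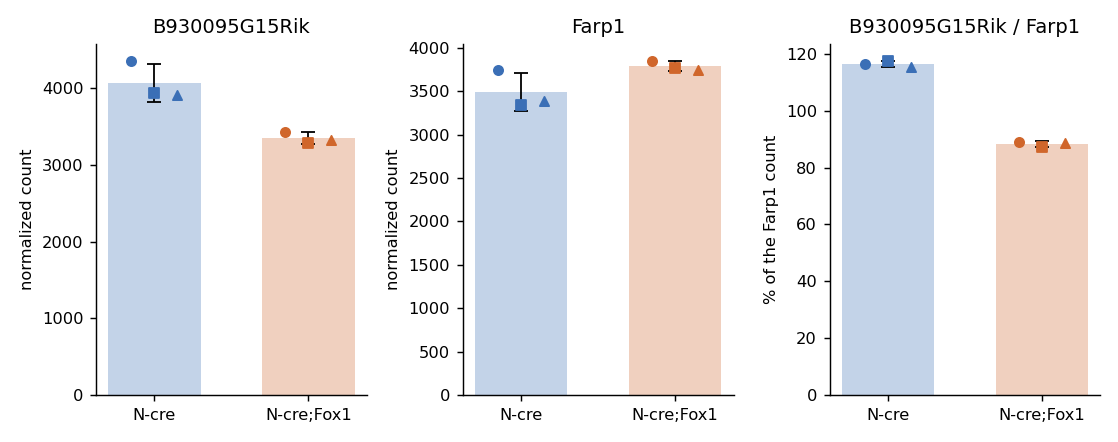
Normalized counts of B930095G15Rik and of its host gene Farp1, and the first as a percent of the second, in 3 N-cre and 3 N-cre;Fox1 mice (bars, mean; error bars, SD; points, mice). The percent lies at 115 to 118 in N-cre and at 87.1 to 89.1 in N-cre;Fox1 mice.

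Peg13 (ENSMUSG00000106847.1, chr15:72805600-72810324, minus strand) is the other member inside a host gene, in intron 16 of 21 of Trappc9-201. Its normalized counts were 15391, 14569 and 14177 in N-cre and 14502, 13541 and 14364 in N-cre;Fox1 mice, which overlapped (log2 fold change -0.06 ± 0.0431 (SE), adjusted p = 0.908 in edgeR). With a mouse left out it ran from -0.08 (without N-cre replicate 3) to -0.019 (without N-cre replicate 1), and it was -0.026 without N-cre;Fox1 replicate 2. As a percent of Trappc9, Peg13 stood at 338, 329 and 319 in N-cre and at 313, 316 and 327 in N-cre;Fox1 mice, again with overlap. Trappc9 lies on the minus strand too, so reads of its unspliced RNA could likewise not be told from those of Peg13.

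Snhg11 (ENSMUSG00000044349.15, chr2:158375638-158386145, plus strand), which the later annotation used here lists as protein coding, had normalized counts of 143953, 141082 and 139263 in N-cre and 132673, 135489 and 135212 in N-cre;Fox1 mice. All 3 N-cre;Fox1 mice lay below the N-cre mice. The means were 141433 ± 2365 and 134458 ± 1552 (SD, n = 3 each), with a log2 fold change of -0.07 ± 0.0356 (SE) and an adjusted p of 0.808 (unadjusted 0.0663) in edgeR's quasi-likelihood test. Snhg11 had the smallest spread of the 10 RNAs, a coefficient of variation within genotypes of 1.45%, and 4.32% of the genes with a mean count of at least 1000 had a smaller one. Snhg11-201 took 97.8% of its counts, between 97.6% and 98.0% in each mouse. Its own counts were 141352, 138018 and 135840 in N-cre and 129578, 132527 and 132025 in N-cre;Fox1 mice, without overlap, with a log2 fold change of -0.08 (unadjusted p = 0.0343, adjusted p = 0.990 in edgeR over all isoforms). The study lists this isoform as changed in these mice, so its values are not independent evidence.

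Meg3 (ENSMUSG00000021268.17, chr12:109541001-109571726), Rian (ENSMUSG00000097451.10, chr12:109603940-109661716) and Mirg (ENSMUSG00000097391.8, chr12:109729764-109749460) lie on the plus strand with gaps of 32.2 kb and 68.0 kb between them. Meg3 had normalized counts of 331579, 335231 and 323656 in N-cre and 314694, 324135 and 311333 in N-cre;Fox1 mice. N-cre;Fox1 replicate 2 lay just above N-cre replicate 3, so the genotypes overlapped, and both of these are the mice with choroid plexus transcripts. The log2 fold change was -0.06 ± 0.0349 (SE) (adjusted p = 0.852 in edgeR). Rian had 43410, 42871 and 40773 in N-cre and 41417, 40811 and 40818 in N-cre;Fox1 mice, with a log2 fold change of -0.05 ± 0.0402 (SE) and an adjusted p of 0.928 in edgeR, and its lowest value belonged to an N-cre mouse. Mirg, at 1701, 1568 and 1491 in N-cre and 1480, 1746 and 1805 in N-cre;Fox1 mice, had both its lowest and its highest value in N-cre;Fox1 (log2 fold change 0.08 ± 0.0798 (SE), adjusted p = 0.940 in edgeR). With a mouse left out the log2 fold change of Mirg ran from 0.023 (without N-cre;Fox1 replicate 3) to 0.17 (without N-cre;Fox1 replicate 1), with 0.14 without N-cre replicate 1, 0.040 without N-cre replicate 3 and 0.051 without N-cre;Fox1 replicate 2, and it was 0.0089 without both mice with choroid plexus transcripts.

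Set against Meg3, the other RNAs of the region overlapped between the genotypes. Rian stood at 13.1, 12.8 and 12.6% of Meg3 in N-cre and at 13.2, 12.6 and 13.1% in N-cre;Fox1 mice (exact permutation p = 0.6). Mirg stood at 0.513, 0.468 and 0.461% of Meg3 in N-cre and at 0.470, 0.539 and 0.580% in N-cre;Fox1 mice (exact permutation p = 0.2). Without the 2 mice with choroid plexus transcripts the genotypes no longer overlapped in 5 of the 10 RNAs, Meg3, Rian, Peg13, Snhg11 and B930095G15Rik, each lower in N-cre;Fox1. But with 2 mice against 2, 35.3% of all genes do not overlap, 17.5% with the lower values in N-cre;Fox1, and 0 of the 10 passed 0.05 in edgeR. Without N-cre replicate 3 alone they were the same 5, where 21.6% of all genes do not overlap, 10.7% with the lower values in N-cre;Fox1. Without N-cre;Fox1 replicate 1 there were 4, Snhg11 and B930095G15Rik lower and Malat1 and Mirg higher, where the share over all genes is 26.4%.

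The Dlk1-Dio3 RNAs carry many annotated small RNA genes that had almost no counts in these libraries. Rian spans 13 snoRNA and 4 microRNA genes, Mirg 14 microRNA genes and Meg3 2, Snhg14 spans 208 snoRNA genes and Snhg11 2. None of them had a mean expected count above 1, the highest being 0.483 for one within Rian, so the levels here are those of the long RNAs. RefSeq (GRCm38.p6) places 35 mature microRNAs from 19 hairpins in these spans, 26 in Mirg, 6 in Rian and 3 in Meg3. Among them 1 seed, bases 2 to 8, occurs in 2 microRNAs, both from Mirg, and these are shown with the seed in capitals. They lie at chr12:109735669-109735692 and chr12:109739132-109739152 on the plus strand.
mmu-miR-453: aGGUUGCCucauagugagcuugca
mmu-miR-496a-5p: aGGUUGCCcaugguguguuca

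Snhg14 (ENSMUSG00000100826.6, chr7:59307924-59975759, minus strand) spans 667836 bp, more than any other of the 10. Its summed normalized counts were 3606, 3383 and 3414 in N-cre and 3405, 3551 and 3530 in N-cre;Fox1 mice, and the log2 fold change was 0.01 ± 0.0371 (SE) (adjusted p = 0.986 in edgeR). Its sign changed without N-cre replicate 2. The isoforms are spread along the locus: Snhg14-211, with 29.7% of the counts, starts at its upstream end, Snhg14-210 held 23.3%, Snhg14-214 10.7%, and Snhg14-213, at the downstream end, 10.7%. Of the 3708 nt of Snhg14-213, 1803 lie within exons of Ube3a on the opposite strand, and 3504 belong to no other Snhg14 isoform.

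Snhg14-213 differed from the sum of the gene. Its normalized counts were 412, 438 and 395 in N-cre and 292, 325 and 364 in N-cre;Fox1 mice, so that all N-cre;Fox1 mice lay below the N-cre mice. The log2 fold change was -0.34 ± 0.116 (SE) (unadjusted p = 0.0230, adjusted p = 0.990 in edgeR over all isoforms). As a share of Snhg14 it stood at 11.4, 12.9 and 11.6% in N-cre and at 8.59, 9.15 and 10.3% in N-cre;Fox1 mice (exact permutation p = 0.1, the smallest possible). As a percent of the Ube3a count it stood at 9.17, 9.89 and 8.74 in N-cre and at 6.79, 7.32 and 8.14 in N-cre;Fox1 mice. Ube3a, which encodes a ubiquitin ligase and is silenced on the paternal chromosome in neurons, had 4491, 4424 and 4525 in N-cre and 4306, 4441 and 4475 in N-cre;Fox1 mice (log2 fold change -0.02, adjusted p = 0.964 in edgeR). The library kit keeps the strand, but the strand setting of the counting is not given in the sources used here, and without it reads of the shared 1803 bases could not be told from those of Ube3a. The study lists Snhg14-213 as changed in these mice too, so its values are not independent evidence. Another isoform of Snhg14 did not overlap either but was higher in N-cre;Fox1, at 147, 132 and 167 in N-cre and 179, 181 and 192 in N-cre;Fox1 mice. Over all isoforms 11.5% of counts do not overlap, and for shares of isoforms other than leading ones this was not computed.

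Malat1 (ENSMUSG00000092341.3, chr19:5795690-5802672) and Neat1 (ENSMUSG00000092274.3, chr19:5824708-5845478) lie 22.0 kb apart on the minus strand. Malat1 had normalized counts of 13061, 13061 and 12633 in N-cre and 12786, 14029 and 13226 in N-cre;Fox1 mice, overlapping, with a log2 fold change of 0.05 ± 0.0406 (SE) (adjusted p = 0.927 in edgeR). Its coefficient of variation within genotypes was 3.64%, close to the median of 3.67% over the 8216 genes with a mean count of at least 1000. Malat1-201, the unspliced form, took 98.4 to 99.5% of its counts.

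Neat1 varied more from mouse to mouse than any other of the 10. Its normalized counts were 9177, 11001 and 13044 in N-cre and 9239, 12954 and 9790 in N-cre;Fox1 mice. The 2 highest values, 1 in each genotype, belonged to N-cre replicate 3 and N-cre;Fox1 replicate 2, the 2 mice with choroid plexus transcripts, and the other 4 lay between 9177 and 11001. Both of these mice were above the other 4 in 10.4% of all genes tested, and of the 10 RNAs in Neat1 alone. They were both below the other 4 in Rian (40773 and 40811 against 40818 or more) and in Peg13 (14177 and 13541 against 14364 or more). The share of all genes in that direction was not computed, so nothing is read from these 2 RNAs. The part of choroid plexus RNA in these values was not tested. The coefficient of variation within genotypes was 18.1%, higher than in 98.6% of genes with a mean count of at least 1000. The log2 fold change was -0.05 ± 0.203 (SE) (adjusted p = 0.988 in edgeR), it ran from -0.22 without N-cre;Fox1 replicate 2 to 0.08 without N-cre replicate 3, and its sign also turned without N-cre;Fox1 replicates 1 or 3. Without both mice it was -0.08 (adjusted p = 0.980 in edgeR). As a percent of Malat1, Neat1 ran from 70.3 to 103 in N-cre and from 72.2 to 92.3 in N-cre;Fox1 mice.

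**Figure D4:**
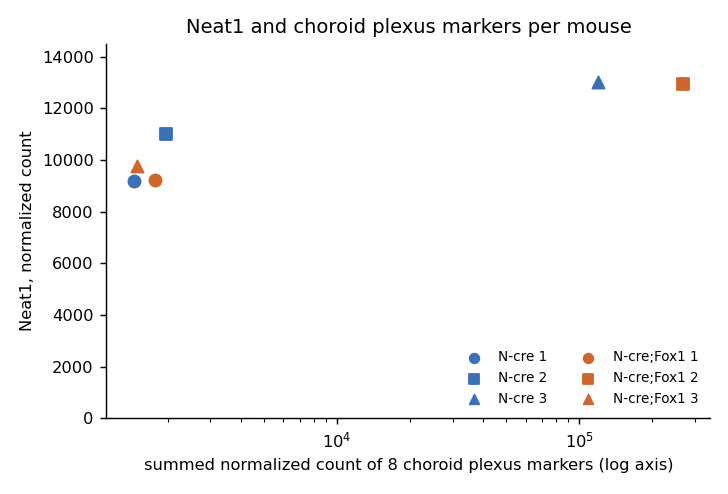
Normalized count of Neat1 in each mouse against the summed normalized count of 8 choroid plexus markers (log axis), with blue for N-cre and orange for N-cre;Fox1 and 1 symbol per replicate number. The 2 mice with sums of 119113 and 267896 have the 2 highest Neat1 counts, 13044 and 12954, against 9177 to 11001 in the other 4.

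Neat1 was divided between its isoforms in like proportions in all mice. Neat1-202, the short polyadenylated form, took 82.9 to 83.7% of the counts in the 6 mice, and Neat1-201, the long form that paraspeckles need, took 14.5 to 15.4%. Neat1-201 had 1394, 1599 and 2004 normalized counts in N-cre and 1400, 1985 and 1458 in N-cre;Fox1 mice, and Neat1-202 had 7634, 9215 and 10807 and then 7669, 10819 and 8149. The short form has no base of its own, against 17767 in the long one, so the division rests on how RSEM assigned shared reads.

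Miat (ENSMUSG00000097767.8, chr5:112213228-112229395, minus strand) had normalized counts of 73667, 70167 and 73937 in N-cre and 69073, 66490 and 72046 in N-cre;Fox1 mice. The highest N-cre;Fox1 mouse lay above the lowest N-cre mouse, and the log2 fold change was -0.07 ± 0.0436 (SE) (adjusted p = 0.870 in edgeR). Miat-201 took 92.5 to 93.7% of the counts. It has no base of its own, so this share rests in large part on how RSEM assigned shared reads. Gm26953, which shares bases with Miat on the opposite strand, had a mean expected count of 30.0 against 71643 for Miat, and Gm37376, opposite Malat1, had 116 against 13322.

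Of the 79 isoforms, 67 passed the filter on low counts, and the other 12 had a mean expected count of 8.36 or less. edgeR's quasi-likelihood test called 0 of the 67 at 0.05 after adjustment and had 6 with an unadjusted p under 0.05, while DESeq2 called 1 (B930095G15Rik-201) and limma-voom 0. Over all 50556 isoforms edgeR called 0%, and 4.78% had an unadjusted p under 0.05 in it. DESeq2 called 215 of all isoforms and limma-voom 0. Of the 67, 42 were lower and 25 higher in N-cre;Fox1, against 49.1% lower over all isoforms. Between the genotypes 8 did not overlap, 6 of them lower and 2 higher, and over all isoforms 11.5% did not, 5.68% lower and 5.85% higher. Besides Snhg11-201, Snhg14-213 and B930095G15Rik-201, the isoforms with an unadjusted p under 0.05 were all of Meg3. Meg3-210 had 145, 163 and 137 in N-cre and 193, 190 and 205 in N-cre;Fox1 mice (log2 fold change 0.40 ± 0.131 (SE), adjusted p = 0.990 in edgeR), at 0.0534% of the Meg3 counts. Meg3-207 had 8336, 8375 and 8377 and then 8011, 7849 and 7821, and Meg3-202 had 5824, 5583 and 5582 and then 5441, 5155 and 5327, with log2 fold changes of -0.08 and -0.09 (adjusted p = 0.990 for each in edgeR). Meg3-202 has no base of its own and Meg3-207 has 44, so their counts rest on the division of shared reads.

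Among the 8 RNAs with more than 1 isoform, 1 leading isoform, Mirg-201, had shares that did not overlap between the genotypes, where 10.2% of 13811 leading isoforms do not. Mirg-201 took 26.3, 22.8 and 25.4% in N-cre and 26.6, 29.4 and 26.9% in N-cre;Fox1 mice (exact permutation p = 0.1). Mirg-207 (24.3%), Mirg-202 (23.2%) and Mirg-210 (10.7%) overlapped. Meg3-209 took 77.2 to 79.3% of Meg3, and Rian-202 took 50.2 to 52.0% and Rian-213 25.6 to 26.8% of Rian. Per annotated length the shares change, since short isoforms gain. Meg3-209 then held 30.0% of Meg3 and still led, while Mirg-207 led Mirg with 41.1%. Snhg14-210 led Snhg14 with 30.0%, where Snhg14-211 held 8.64%, and Neat1-201 held 2.42% of Neat1. Rian-213, Mirg-202 and Mirg-207 have no base of their own, so their shares rest on the division of shared reads.

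**Figure D5:**
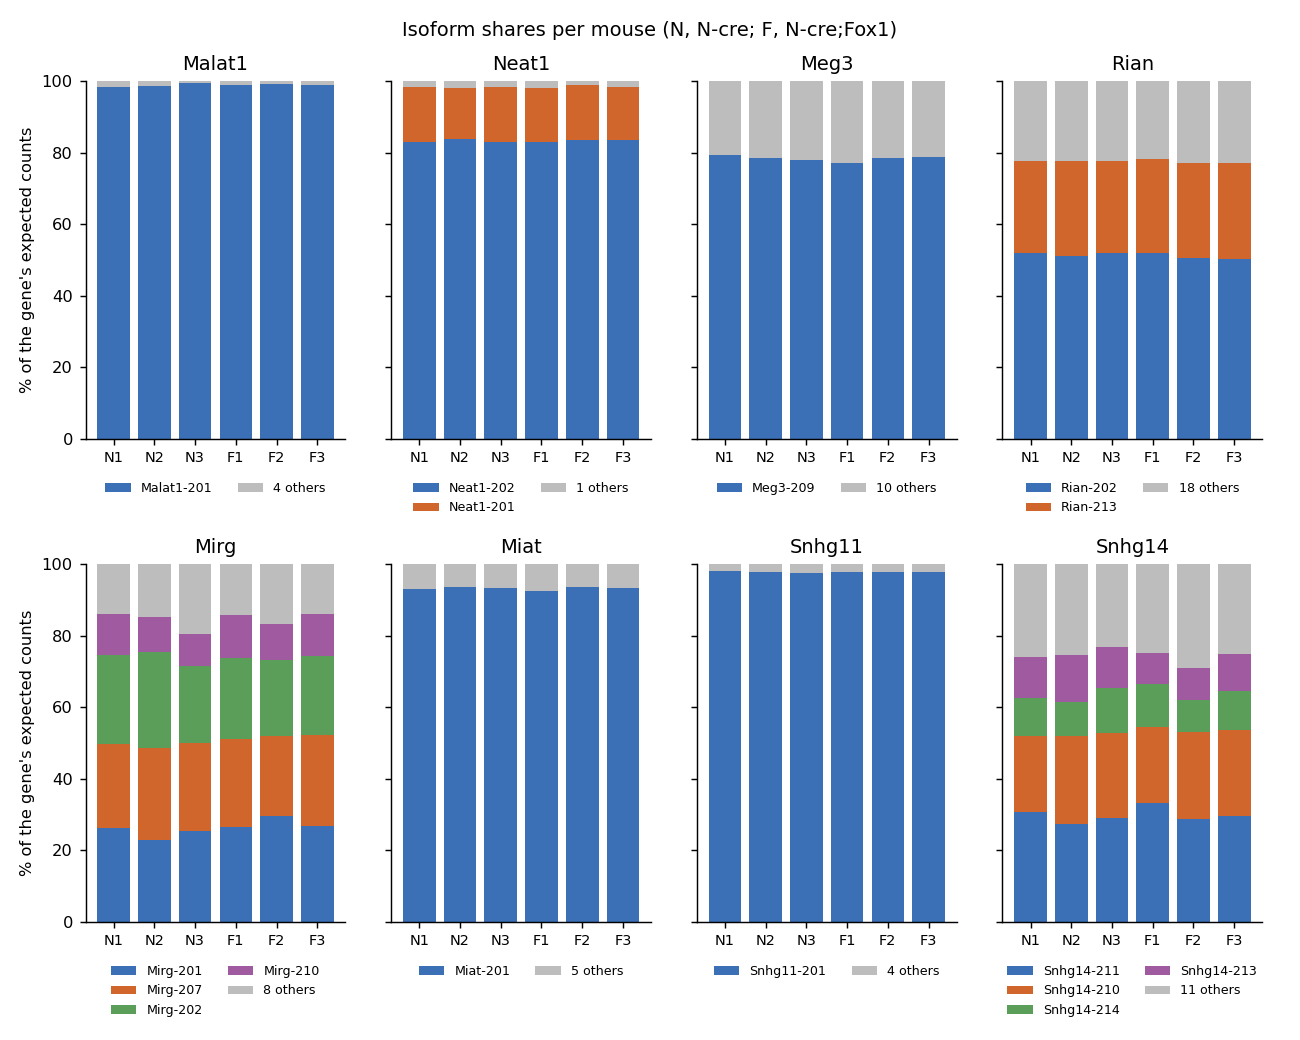
Share of each gene's expected counts (percent) taken by its isoforms in each mouse (N1 to N3, N-cre; F1 to F3, N-cre;Fox1), with isoforms of at least 10% in colour and the others in grey. Malat1, Miat and Snhg11 are each held by 1 isoform at 92.5% or more in every mouse, while Mirg and Snhg14 are divided among 4 isoforms of at least 10%.

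Together the 10 RNAs took 1.21, 1.22 and 1.20% of all expected counts in N-cre and 1.14, 1.19 and 1.15% in N-cre;Fox1 mice. Each N-cre;Fox1 mouse lay below each N-cre mouse, with a mean difference of -0.0490 percentage points, a change of -4.05%, and an exact permutation p of 0.1, the smallest possible. The percent change was -4.14% without Meg3, -3.83% without Snhg11 and -4.21% without Malat1. Without the 2 mice with choroid plexus transcripts it was -5.85%. Transcripts of the mitochondrial genome were lower as well, at 5.86 to 5.94% in N-cre and from 5.65 to 5.71% in N-cre;Fox1 mice, and leaving them out of the total gave a change of -4.29%. The summed count of 8 astrocyte markers was higher, at 216610 to 226473 in N-cre and from 229214 to 247756 in N-cre;Fox1 mice, without overlap and with no marker at 0, while that of 10 neuron markers overlapped (408971 to 429734 and 393071 to 424367). The part of either in the share of the 10 RNAs was not tested.

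Other genes of the same kinds were compared from lists. Of 25 other brain long noncoding RNAs 18 were tested, 5 higher and 13 lower in N-cre;Fox1, with a median log2 fold change of -0.03, and edgeR gave 0 of them a p under 0.05, adjusted or not. The 2 most abundant, 2900097C17Rik and 1700020I14Rik, had log2 fold changes of -0.03 and 0.01. Of the 15 proteins of nuclear speckles and paraspeckles, where Malat1 and Neat1 reside, 9 were higher and 6 lower (median 0.00), and 2 had an unadjusted p under 0.05 in edgeR, Pspc1, a paraspeckle protein, at -0.10 (2366, 2338 and 2258 in N-cre and 2251, 2093 and 2172 in N-cre;Fox1 mice) and Srsf5, a splicing factor, at -0.10 (19271, 19382 and 19613 and then 18666, 17941 and 17709). Neither passed after adjustment (adjusted p = 0.799 and 0.773 in edgeR).

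Of 19 snoRNA host genes other than Snhg11 and Snhg14, 16 were tested, 6 higher and 10 lower (median -0.01), and Snhg4 had an unadjusted p under 0.05 in edgeR, at 430, 447 and 449 in N-cre and 493, 510 and 532 in N-cre;Fox1 mice (log2 fold change 0.21, adjusted p = 0.778). Of 15 imprinted or neighbouring genes of these loci 14 were tested, 4 higher and 10 lower (median -0.03). Ago2, which encodes an Argonaute protein and lies near Peg13, had an unadjusted p under 0.05 in edgeR, with 5341, 5584 and 5605 in N-cre and 6147, 5946 and 5814 in N-cre;Fox1 mice (log2 fold change 0.12, adjusted p = 0.718). Of 4 small nuclear noncoding RNAs without poly(A) tails, 1, Rn7sk, had enough counts to be tested, at a mean of 37.6, and its log2 fold change was -0.03. With an adjusted p under 0.05, 0 genes of any list were called in edgeR or limma-voom. DESeq2, which called 50 of all genes, called Gfap and Aqp4, both astrocyte markers.

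Among 8 astrocyte markers 6 were higher and 2 lower, with a median log2 fold change of 0.06. Of these, 4 had an unadjusted p under 0.05 in edgeR, where 6.19% of all genes do (Gfap 0.38, Aqp4 0.21, Slc1a2 0.12 and Gja1 0.10 in log2 fold change), and the others were at 0.03 (Aldoc), 0.02 (Sox9), -0.02 (Slc1a3) and -0.14 (Aldh1l1). Of 10 hippocampal markers 7 were higher and 3 lower, from -0.35 to 0.12 with a median of 0.02, and C1ql2 (0.12) and Zbtb20 (0.10) had such a p. Of 8 oligodendrocyte markers 3 were higher and 5 lower, from -0.11 to 0.17 with a median of -0.01, and Mobp (0.17) had such a p. Of 10 thalamus and striatum markers 2 were higher and 8 lower (median -0.15), and Adora2a (-0.61) and Rgs9 (-0.22) had such a p. Of the 10 neuron, 8 microglia, 8 endothelium and 8 choroid plexus genes, 0 had such a p. Their median log2 fold changes were -0.02, -0.02, 0.07 and 1.10, the last in a list whose sum is high in the 2 mice named above. Abundant genes of these lists had log2 fold changes of -0.01 (Snap25) and -0.05 (Syt1) in neurons, 0.03 (Csf1r) in microglia, -0.13 (Slc2a1) and 0.09 (Flt1) in endothelium and 0.63 (Kl) in choroid plexus, where Ttr had 36887 ± 63082 in N-cre and 83319 ± 143480 (SD, n = 3 each) in N-cre;Fox1 mice.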

How the data were processed

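Total RNA of hippocampi from 3 N-cre and 3 N-cre;Fox1 mice was sequenced with a stranded kit in paired reads. The authors trimmed reads with cutadapt 1.18, aligned them to the mouse genome with STAR 2.5.2b and estimated isoform abundance with RSEM 1.3.0. The values deposited are the resulting expected counts per isoform, not normalized, between 40463587 and 62141336 per mouse, and RSEM divides reads that several isoforms share, so isoforms with few bases of their own are uncertain. The strand setting of the counting is not given in the sources used here.

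Expected counts were summed over isoforms by gene symbol, rounded and tested across all genes and, separately, all isoforms with edgeR 4.0.16 (R 4.3.3), using filterByExpr (min.count 10, min.total.count 15), TMM scaling, robust quasi-likelihood tests and Benjamini-Hochberg adjustment with a threshold of 0.05. Normalized counts are TMM-scaled to the mean library. Shares and ratios were compared with two-sided exact permutation tests computed with NumPy 2.4.6, for which 3 mice against 3 cannot give a p below 0.1. The script was tested on simulated data. P-values set the difference between the genotypes against the spread between these mice. Positions and lengths are from GENCODE M21 (GRCm38).

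The members and gene lists were chosen with earlier results of these data known. Named isoforms are the leading one of each gene, those with at least 10% of its counts, those whose normalized count averages 100 or more and an unadjusted p under 0.05, and those the study lists as changed. In other lists, genes with an unadjusted p under 0.05 or else the 2 with the most counts are named. Likeness to the summed members was ranked by Pearson correlation. Alternatives were DESeq2 1.42.0 (its Wald test and its size factors), limma-voom (limma 3.58.1), upper quartile scaling, other filters, unrounded counts, library sizes without the members and mitochondrial genes, a term for Xist, a replicate block and leaving out each mouse. Leaving out the 2 mice with choroid plexus transcripts, and Meg3, and the ratios between genes were chosen after seeing the data. A few genes of the other lists are not reported here.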

Additional observations from a re-analysis of the deposited data

How the results depend on the processing

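Of 272 values of named genes and isoforms under the alternatives, 262 kept their direction and their side of 0.05, 4 newly passed it and 6 turned sign. The log2 fold change of Malat1 was -0.0041 and that of Snhg14 -0.010 without the 2 mice with choroid plexus transcripts, that of Snhg14 ran from -0.0038 (without N-cre replicate 2) to 0.045 with a mouse left out, and that of Neat1 ran from -0.22 to 0.084 with a mouse left out, the highest without N-cre replicate 3, 0.044 without N-cre;Fox1 replicate 1 and 0.0039 without N-cre;Fox1 replicate 3. The cause was not tested. The 12 isoforms below the filter were not tested.

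Against 5 genes past 0.05, there were 45 with no filter beyond 1 count in total, 50 in DESeq2's Wald test, 11 with a term for Xist, and 2 (without N-cre replicate 2) to 29 (without N-cre;Fox1 replicate 1) with 1 mouse left out. Against 0 isoforms, there were 10 with no filter, 6 with at least 10 counts in every mouse, 215 in DESeq2 and 1 without rounding, and 0 with any mouse left out. Of the 10 RNAs 1, B930095G15Rik, passed with no filter, in DESeq2 and with the term for Xist, and of their isoforms 1, B930095G15Rik-201, passed in DESeq2, against 0. In the other lists 2 genes (Aqp4 and Gfap) passed with no filter and in DESeq2, 1 (Gfap) with the term for Xist and 1 without the 2 mice with choroid plexus transcripts, and 0 to 1 with a mouse left out, the 1 without N-cre;Fox1 replicate 2.

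Against 2 RNAs without overlap there were 3 with upper quartile scaling, where Meg3 was added. With that scaling 12.4% of all genes did not overlap, 7.35% with the lower values in N-cre;Fox1, against 12.2% and 6.11%. Without the 2 mice with choroid plexus transcripts there were 5 (35.3% of all genes). With a mouse left out there were 2 to 5, where 19.7 to 26.4% of all genes do not overlap. Against 1 leading isoform whose share did not overlap, there were 2 without the 2 mice with choroid plexus transcripts and 1 to 2 with a mouse left out. The share over all leading isoforms was not computed with fewer mice, so nothing is read from these counts. The share of the library taken by the 10 RNAs changed by -5.39 to -3.15% with a mouse left out.

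With a replicate block 5 genes, 0 isoforms, 0 of the 10 RNAs and 0 of their isoforms passed 0.05 in edgeR. The deviations of same-numbered mice from their group means correlated at 0.73, -0.23 and -0.37 over 13720 genes. Not every mouse correlated best with its own number: N-cre replicate 3 did so with N-cre;Fox1 replicate 2 (0.76) and N-cre replicate 2 with N-cre;Fox1 replicate 3 (0.56). The replicate 1 mice, which correlated at 0.73, are also the mice with high Xist. The numbers were therefore not taken to pair the mice.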

Other observations

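Of 13708 genes whose normalized count averages 100 or more, the 3 whose log2 normalized counts ran most like those of the summed 10 RNAs over the 6 mice were Amn (Pearson's r 0.993), Col16a1 (0.986) and Slc39a10 (0.985). These are the highest of many correlations over 6 mice that share their libraries and scaling, and they are given as a description.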
